A study of Canis lupus familiaris with 2 samples.

Results

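Activator protein 1 (AP-1) is not a single protein but a group of transcription factor dimers, and the 10 genes described here encode subunits of it. They are *JUN*, *JUNB* and *JUND* of the JUN family, *FOS*, *FOSB*, *FOSL1* and *FOSL2* of the FOS family, and the relatives *ATF3*, *JDP2* and *BATF2*. Their rows were picked by gene symbol from the 23510 rows of the FPKM tables of both cultures, and all 10 symbols were found. The symbols were selected from the AP-1 family with the FPKM values and ratios of these same cultures already known, so what follows for these genes is a description and carries no test.

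The cells were MDCK, an established canine kidney line that forms a columnar epithelial sheet on a semipermeable membrane. Each of the 2 cultures was started with 40000 cells in an insert and kept in EMEM with fetal calf serum, and the labels give 3 days for both. The first, called the control here, stood under 2-cm-high medium (2 cm H2O, labelled as no pressure), and the second, the pressure-loaded culture, under 50-cm-high medium (50 cm H2O). RNA of 1 culture per height was sequenced, from 1 cell line, so there is no replicate error for any value and no difference could be tested.

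AP-1 dimers hold DNA through a basic region and hold each other through a leucine zipper. JUN proteins can pair with each other or with FOS proteins, whereas FOS proteins need another partner, most often a JUN protein. The mixture of subunits in a cell thus sets which dimers can form. Several subunit genes, *FOS* and *FOSL1* among them, are switched on by mitogens through the MAP kinase cascade. In epithelia, AP-1 is known for its part in proliferation, wound closure, differentiation and the response to stress.

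FPKM counts the sequenced fragments of a gene scaled by the length of its exons and the size of the library, so the levels of different genes can be set side by side. It states a share of the RNA, and fewer expressing cells cannot be told apart from less RNA per cell. The FPKM values summed to 600496 in the control and 614100 under pressure, and 11057 features exceeded 1 FPKM in each culture. Read numbers are unknown, but of the 574 features detected in both cultures at under 0.1 FPKM, 219 had a ratio within 0.2% of 1.098, which puts the worth of 1 read at 9.77% more FPKM in the pressure-loaded culture. No subunit gene had a ratio within 0.05% of one that at most 10 reads per culture would give. Of the 7 kidney epithelial markers analysed, 6 exceeded 1 FPKM in each culture, and *CDH16*, a kidney-specific cadherin, had 1.96 FPKM in the control and 0.676 FPKM under pressure. The summed level of 4 fibroblast markers was 0.296 and 0.329 FPKM, that of 3 endothelial markers 0.458 and 0.268 FPKM, and both leukocyte markers were listed at 0.

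All 10 AP-1 subunit genes exceeded 1 FPKM in both cultures. *JUND* had the highest level and *FOSL2* the next in both, and these genes together with *JUNB*, *JUN*, *JDP2* and *ATF3* lay above 20 FPKM at either height. The lowest levels were those of *BATF2* and *FOSB*. In 2-cm-high medium the order was *JUND*, *FOSL2*, *ATF3*, *JUNB*, *JUN*, *JDP2*, *FOS*, *FOSL1*, *BATF2* and *FOSB*. The run from *ATF3* to *JDP2* was nearly flat, with neighbours 1.005 to 1.02 times apart, so the order of these 4 genes has little weight. In 50-cm-high medium the order became *JUND*, *FOSL2*, *JUNB*, *JUN*, *JDP2*, *FOSL1*, *ATF3*, *FOS*, *BATF2* and *FOSB*. *FOSL1* had thereby moved from place 8 to place 6, next to *JDP2* and *ATF3*, from which it differed by 1.03 times on either side. The step from the highest gene to the second, *JUND* over *FOSL2*, narrowed from 1.24 to 1.09 times.

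**Figure D1:**
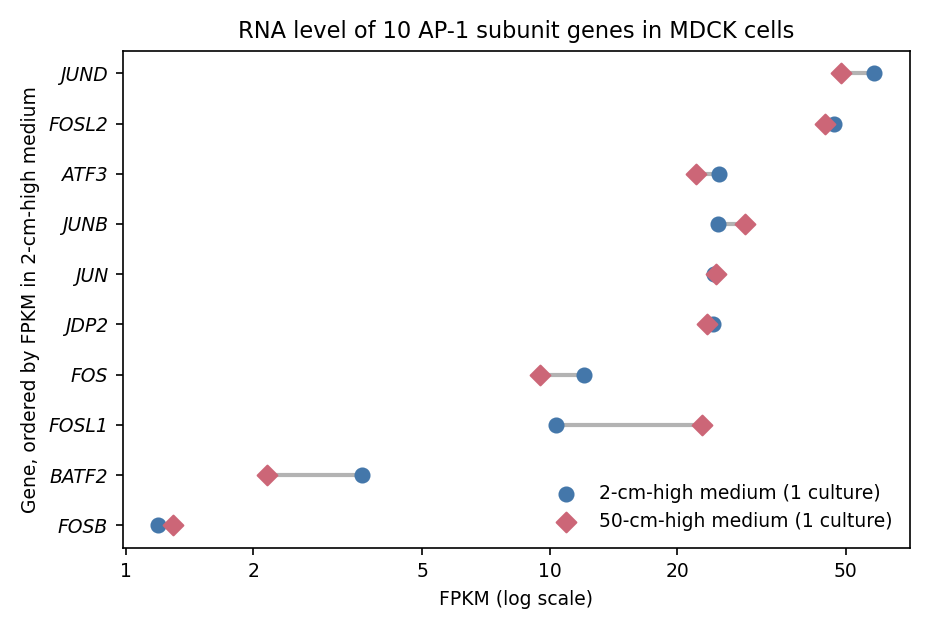
FPKM (horizontal log axis) of the 10 AP-1 subunit genes in the 2-cm-high-medium culture (circles) and the 50-cm-high-medium culture (diamonds), with 1 culture per height and a grey line joining the values of a gene. *FOSL1* has the longest line, from 10.4 to 22.8 FPKM, and *BATF2* the next, from 3.61 to 2.15 FPKM, while the points of *JUN* lie almost on each other.

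*FOSL1* encodes FRA-1, a FOS family protein without the strong transactivation domain of FOS, whose RNA and protein are both raised by ERK signalling in growing and migrating epithelial cells. Its level was 10.4 FPKM in the control and 22.8 FPKM under pressure, a difference of 12.5 FPKM and a ratio of 2.203 (1.14 on the log2 scale). Only 23 of the 11057 features (0.208%) had a higher ratio. Of the 500 features nearest to it in mean log2 FPKM, 3 had a higher ratio, and the log2 ratios of the 500 had a scaled median absolute deviation of 0.205. That deviation is a spread across genes and not an error of the ratio. By level, *FOSL1* moved from rank 7085 to rank 4368 among all features.

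The other FOS family genes had ratios closer to 1. *FOSL2*, which encodes FRA-2, a relative of FRA-1, had 46.96 FPKM in the control and 44.7 FPKM under pressure (ratio 0.952). *FOS* encodes the founding member of the family, whose transcripts appear within minutes of a mitogenic signal and are short-lived. Its level was 12.04 FPKM and then 9.50 FPKM, a ratio of 0.790 (-0.34 on the log2 scale), and 445 of the 500 features nearest in expression had a higher ratio. *FOSB*, another rapidly induced member, was barely above the 1 FPKM limit, with 1.19 and 1.29 FPKM (ratio 1.08, or 0.12 on the log2 scale, and 0.35 after quantile normalization). At this level the spread across the 500 nearest features was 0.42 on the log2 scale, against 0.12 for *FOSB* itself.

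The make-up of the FOS family differed between the heights. *FOSL1* took 14.7% of the family's summed FPKM in the control and 29.2% under pressure, whereas *FOSL2* took 66.6% and 57.1%, and *FOS* 17.1% and 12.1%. The level of *FOSL1* was 0.862 times that of *FOS* in the control and 2.40 times that of *FOS* under pressure. *FOSL2* exceeded *FOSL1* by 4.53 times in the control and by 1.96 times under pressure. *FOSB* stayed at the bottom of the family with 1.69% and 1.65%.

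The JUN family supplies the usual partners of FOS proteins. *JUND*, the member that resting cells also express and that restrains growth in several cell types, had 58.3 FPKM in the control and 48.8 FPKM under pressure. This was a ratio of 0.838 (-0.26 on the log2 scale) and a difference of -9.44 FPKM, the largest loss among the 10 genes. Of the 500 features nearest in expression, 460 had a higher ratio than *JUND*. *JUNB*, which can hold back JUN-driven transcription, was the opposite case, with 24.98 FPKM in the control and 28.9 FPKM under pressure (ratio 1.16), and 105 of its 500 neighbours had a higher ratio. *JUN*, the member with the strongest drive towards proliferation, had 24.4 and 24.7 FPKM. Its log2 ratio of 0.02 was close to the median of all features (0.01), and its sign turned to -0.02 after quantile normalization and to -0.01 after rescaling both cultures to the same sum.

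Within the family, the shares of *JUND* were 54.1% in the control and 47.7% under pressure. Those of *JUNB* were 23.2% and 28.2%, and those of *JUN* 22.7% and 24.1%. *JUND* thus remained the most abundant JUN transcript at both heights, although its excess over *JUNB* went from 2.33 to 1.69 times.

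*ATF3*, *JDP2* and *BATF2* encode smaller basic leucine zipper proteins that pair with JUN proteins and mostly dampen or redirect AP-1 activity. *ATF3*, a gene induced by many kinds of cell stress, had 25.1 FPKM in the control and 22.1 FPKM under pressure (ratio 0.880). *JDP2*, a repressor of AP-1 sites that most tissues express steadily, had 24.3 and 23.5 FPKM (ratio 0.968). *BATF2*, an interferon-responsive gene whose product lacks a transactivation domain, had the lowest ratio of the 10 genes. Its level was 3.61 FPKM in the control and 2.15 FPKM under pressure, a ratio of 0.596 (-0.75 on the log2 scale). Of the 500 features nearest to *BATF2* in expression, 445 had a higher ratio and 55 a lower one, the same counts as for *FOS*. Weakly expressed features varied more, and these 500 had a median log2 ratio of -0.14 with a scaled median absolute deviation of 0.41. None of these 3 genes was higher in 50-cm-high medium.

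Summed over all 10 genes, the level was 231 FPKM in the control and 229 FPKM under pressure (ratio 0.988), or 0.0385% and 0.0372% of all FPKM. The 4 genes that were higher under pressure gained 16.8 FPKM together, and the 6 that were lower had a combined difference of -19.5 FPKM. The near-equal totals thus held differences that offset each other, with *FOSL1* on the gaining side and *JUND* on the other. Without *FOSL1* the sum went from 221 to 206 FPKM (ratio 0.931). *FOSL1* held 4.49% of the summed FPKM in the control and 10.0% under pressure, a difference of 5.51 percentage points. *JUND* held 25.2% and 21.4%, a difference of -3.84 points. *JUNB* went from 10.8% to 12.6%, *ATF3* from 10.9% to 9.67% and *FOS* from 5.21% to 4.16%, and the remaining 5 genes each moved by less than 1 point.

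By family, the JUN genes summed to 108 FPKM in the control and 102 FPKM under pressure (ratio 0.951). The FOS genes summed to 70.6 and 78.4 FPKM (ratio 1.11), and *ATF3*, *JDP2* and *BATF2* to 53.0 and 47.8 FPKM (ratio 0.901). JUN transcripts exceeded FOS transcripts at both heights, by 1.53 times in the control and 1.31 times under pressure. The direction of the JUN and FOS sums changed with the removal of a single gene. With *FOSL1* left out, a choice made after the values were seen, the log2 ratio of the FOS family turned from 0.15 to -0.12, and with *JUND* left out that of the JUN family turned from -0.07 to 0.12. Without *FOSL2*, its most abundant gene, the FOS family had 0.51, and without *JDP2* the third group went from -0.15 to -0.24.

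**Figure D2:**
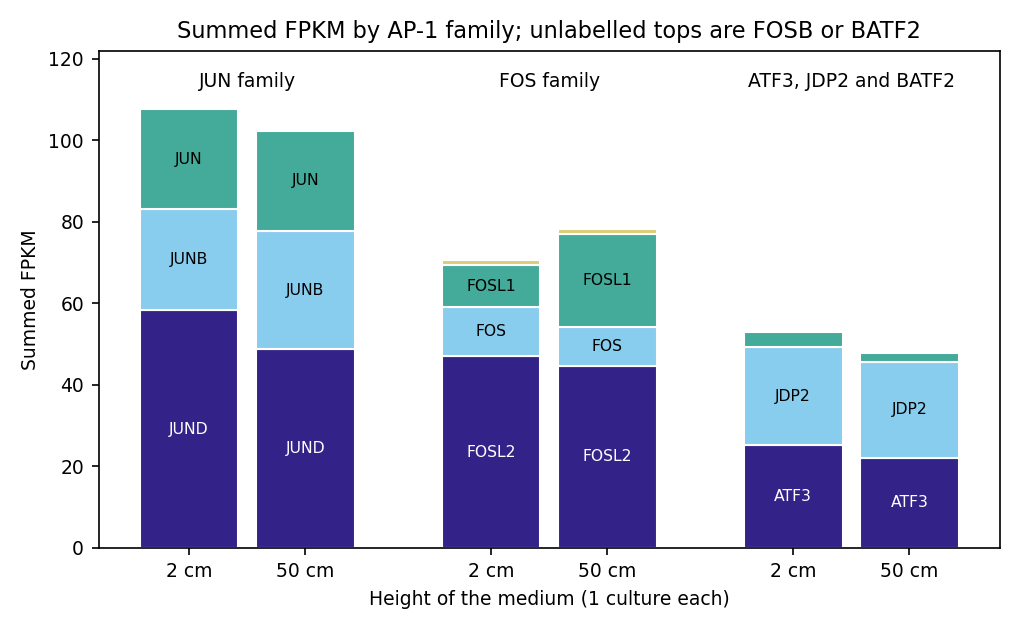
Summed FPKM (vertical axis, from 0) of the JUN family, the FOS family and the group of *ATF3*, *JDP2* and *BATF2*, stacked by gene, in 2-cm-high and 50-cm-high medium with 1 culture each. The FOS bar is taller under pressure (78.4 against 70.6 FPKM) through its *FOSL1* section, and the *JUND* section of the JUN bar is shorter.

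Of the 10 subunit genes, 1 was more than 2-fold higher in 50-cm-high medium, *FOSL1*, beside 43 of all 11057 features (0.389%). None was more than 2-fold lower, beside 142 of all features (1.28%), which makes 1 of 10 in either direction beside 1.67%. At 1.5-fold, *FOSL1* was again the single gene on the higher side (2.13% of all features) and *BATF2* the single gene on the lower side (5.06%), so that 2 of 10 passed this limit beside 7.19% of all features. Because the list was drawn up with these ratios known, nothing is read from the comparison of these shares. The remaining 8 genes lay between ratios of 0.790 and 1.16. The median log2 ratio of the 10 genes was -0.06, against 0.01 for all features, and 4 were higher under pressure and 6 lower, whereas 52.6% of all features were higher.

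**Figure D3:**
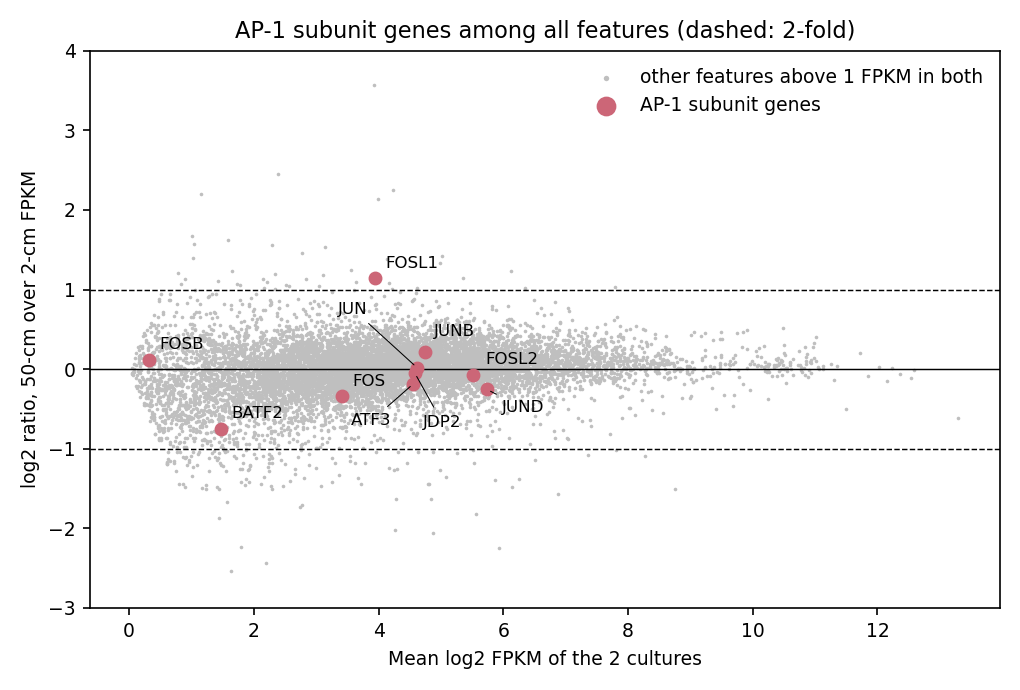
log2 ratio of 50-cm over 2-cm FPKM (vertical axis) against the mean log2 FPKM of the 2 cultures (horizontal axis) for the 11057 features above 1 FPKM in both (grey) and the 10 AP-1 subunit genes (red), with dashed lines at 2-fold. *FOSL1* alone lies past a dashed line, at 1.14, and *BATF2* is the lowest of the 10 at -0.75.

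The features most like each subunit gene were sought by their distance in log2 FPKM over the 2 cultures, which with 2 points means only a similar level and a similar ratio. The nearest to *FOSL1* was LOC102151819, an unnamed locus with 10.4 and 23.0 FPKM at a distance of 0.0107. Beyond it the surroundings of *FOSL1* were sparse, since the next features, *PDCD2L* with 10.8 and 20.3 FPKM and *BMP7*, a growth factor of kidney development, with 11.7 and 20.7 FPKM, lay at 0.181 and 0.228. For *JUND* the nearest features were *SRI* at 0.0112, *PSIP1* at 0.013 and *FAM54A* at 0.0162. For *FOS* they were *CTTNBP2NL* at 0.0153, *MARCH8* at 0.0287 and *MFSD10* at 0.0384. The nearest feature to every other subunit gene lay within 0.0234, and the third nearest within 0.0598, the distance for *BATF2*.

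Other basic leucine zipper genes, among them further AP-1 subunits and the partners that share their zipper, were gathered in a list of 30, of which 22 exceeded 1 FPKM in both cultures. None of the 22 passed 1.5-fold in either direction, beside 7.19% of all features. The list was chosen with earlier results of these data known, so nothing is read from this count. The median log2 ratio of the 22 genes was 0.11, with 14 higher and 8 lower in 50-cm-high medium. The small MAF genes, whose products can pair with FOS proteins, had the highest ratios among these 22. *MAFG* had 11.7 FPKM in the control and 16.8 FPKM under pressure (ratio 1.44), *MAFF* 4.89 and 6.996 FPKM (ratio 1.43), and *MAFK* 3.77 and 5.15 FPKM (ratio 1.37). Of the listed C/EBP genes, which encode another zipper family, only *CEBPD* was lower. *CEBPB* had 18.8 and 25.3 FPKM (ratio 1.34), *CEBPA* 2.14 and 2.89 FPKM (ratio 1.35) and *CEBPG* 18.4 and 24.0 FPKM (ratio 1.30). *CEBPD* had 14.6 and 11.1 FPKM (ratio 0.759).

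The MAP kinase cascade carries growth and stress signals to AP-1, and SRF with its ELK partners drives *FOS* transcription. A list of these genes, which also held regulators outside the cascade such as *TSC22D3*, had 39 genes found by symbol. Of these, 34 exceeded 1 FPKM in both cultures, and their median log2 ratio was 0.05, with 20 higher and 14 lower under pressure. None passed 2-fold (1.67% of all features). At 1.5-fold, 1 passed in each direction, or 5.88% of the list beside 7.19% of all features. This list too was chosen with earlier results of these data known, so nothing is read from these shares. The genes past 1.5-fold were *HRAS* and *TSC22D3*. *HRAS*, a RAS gene at the head of the ERK branch, had 30.8 FPKM in the control and 47.2 FPKM under pressure (ratio 1.53). *TSC22D3*, a glucocorticoid-induced inhibitor of AP-1, had 18.5 and 11.6 FPKM (ratio 0.629). *MAP2K3*, an activator of p38, had a ratio of 1.38, *ARAF* one of 1.30 and *ELK3* one of 1.29. *MAP3K1*, an activator of the JNK branch, had 23.7 and 16.5 FPKM (ratio 0.699).

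Immediate-early genes outside AP-1 are induced by the same signals as *FOS* and *JUNB*. Of 25 in the tables, 18 exceeded 1 FPKM in both cultures. Their median log2 ratio was 0.14, none passed 2-fold (1.67% of all features), and at 1.5-fold 3 were higher (2.13% of all features) and 1 was lower (5.06%) in 50-cm-high medium. In either direction, 22.2% of the list passed 1.5-fold, beside 7.19% of all features. This list too was chosen with earlier results of these data known, so nothing is read from these shares. Of the 18 genes, 10 were higher and 8 lower under pressure, whereas 52.6% of all features were higher. Among the subunit genes 4 were higher and 6 lower. *EGR1*, which like *FOS* is a direct target of SRF and ELK proteins, had 14.5 FPKM in the control and 7.33 FPKM under pressure (ratio 0.505), just short of the 2-fold limit. *BTG2*, an antiproliferative gene, also had a ratio below 1 (0.675). The 3 genes past 1.5-fold on the higher side were *CYR61*, *IER3* and *MYC*. *CYR61*, a matricellular protein gene that responds to YAP as well, had 103 and 171 FPKM (ratio 1.66). *IER3* had 72.8 and 119 FPKM (ratio 1.64) and *MYC* 57.7 and 88.05 FPKM (ratio 1.53). *ZFP36*, which encodes a protein that destabilises short-lived transcripts, had a ratio of 1.47.

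Genes commonly named as AP-1 targets in other cells were the list with the highest ratios. Of 30 in the tables, 20 exceeded 1 FPKM in both cultures, and 19 of the 20 were higher in 50-cm-high medium, beside 52.6% of all features. Their median log2 ratio was 0.55, against 0.01 for all features and -0.06 for the subunit genes. At 2-fold, 3 of the 20 were higher, beside 0.389% of all features, and none was lower, beside 1.28%. At 1.5-fold, 9 were higher, beside 2.13%, and none was lower, beside 5.06%. This list too was chosen with earlier results of these data known, so nothing is read from setting it beside all features. *PLAUR*, the receptor for urokinase, had 7.64 FPKM in the control and 18.0 FPKM under pressure (ratio 2.36). *CCND1*, which encodes cyclin D1, had 45.7 and 107 FPKM (ratio 2.35), and *LOR*, which encodes the cornified envelope protein loricrin, 8.47 and 18.1 FPKM (ratio 2.13). These ratios lie beside the 2.203 of *FOSL1*, and 15 to 29 of all features exceeded them.

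The other targets with large ratios have varied roles. *TIMP1*, an inhibitor of matrix metalloproteinases, had 17.5 and 33.8 FPKM (ratio 1.94), *CCL2*, a chemokine gene, 1.90 and 3.66 FPKM (ratio 1.92), and *CDKN1A*, which encodes the cell cycle inhibitor p21, 51.0 and 88.6 FPKM (ratio 1.74). Among the 20 genes above 1 FPKM in both cultures, only *VEGFA*, an angiogenic factor, was lower, with 24.1 and 22.6 FPKM (ratio 0.936). Of the 10 that did not exceed this limit, *TGM1*, *MMP9* and *IL11* were lower and *MMP13*, *IL8* and *IVL* higher. The other 4 were listed at 0 in both. Every gene of this list has regulators other than AP-1, and no binding or protein measurement of AP-1 was analysed here, so which of them AP-1 acts on in these cells was not tested.

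**Figure D4:**
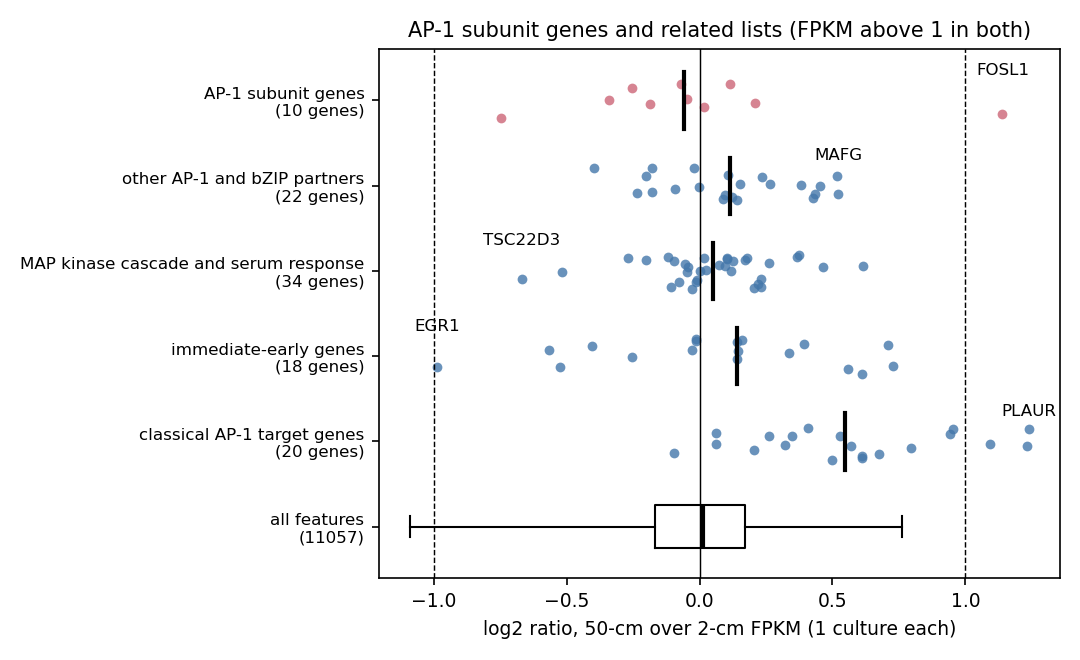
log2 ratio of 50-cm over 2-cm FPKM (horizontal axis) of each gene above 1 FPKM in both cultures, by list, with black bars at the medians and the gene of largest absolute ratio named. The box of all 11057 features spans the quartiles, its whiskers the percentiles 1 to 99. The subunit genes centre on -0.06 and the target genes on 0.55, in lists chosen with earlier results of these data known.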

How the data were processed

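The deposited tables give 1 FPKM value per gene symbol and culture. The authors made stranded mRNA libraries, read 75 bases from 1 end and mapped them to CanFam3.1. The submitters' processing notes name TopHat2 (2.0.13), Bowtie2 (2.2.3), SAMtools (0.1.19) and, for the FPKM step, Cuffnorm (2.2.1). Annotation and scaling method are not given in the sources used here, and depth is unknown.

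From these values, ratios (50-cm over 2-cm FPKM) were computed without pseudocount, and 2-fold calls required more than 1 FPKM in both cultures. Shares are percentages of the 10 genes' summed FPKM. Neighbours were the 500 features closest in mean log2 FPKM. With 1 culture per height no test was made.

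The members and gene lists were chosen with earlier results of these data known. Named are all members, up to 6 genes of largest absolute log2 ratio per list, and 3 nearest features for some members. Also named are *CDH16*, *VEGFA*, *CEBPG* and weakly expressed target genes, chosen after their values were seen. All 10 symbols matched a RefSeq table of another assembly, so no coordinates are given. The code was tested on simulated data. Python 3.11.15, numpy 2.4.6 and pandas 2.3.3 were used.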

Additional observations from a re-analysis of the deposited data

How the results depend on the processing

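Alternatives were a minimum of 0, 0.1 or 5 FPKM, a pseudocount of 0.1 or 1, recentring on the median, quantile normalization and rescaling to the same sum. The count of subunit genes past 2-fold was 1 under each of these 8 settings, while the share of all features past 2-fold ran from 0.708% (minimum 5 FPKM) to 8.5% (minimum 0). At a 1.5-fold limit 2 subunit genes passed. The log2 ratio of *FOSL1* ran from 1.07 to 1.14 and that of *BATF2* from -0.78 to -0.55, and a minimum of 5 FPKM removed *BATF2* and *FOSB*. *JUN* changed sign under quantile normalization (-0.02) and rescaling (-0.01), and no other subunit gene changed sign. Quantile normalization moved *FOSB* from 0.12 to 0.35 and *FOSL2* from -0.07 to -0.14. The family sums kept their sign under the pseudocounts and scalings. Without *JUND* the JUN family had 0.12, and without *FOSL1*, an alternative added after seeing the data, the FOS family had -0.12. Without their most abundant genes, the FOS family (*FOSL2*) had 0.51 and the third group (*JDP2*) -0.24. The shares of *FOSL1* and *JUND* moved by less than 1.5 times with a pseudocount of 1, quantile normalization or *BATF*, *BATF3*, *ATF2* and *ATF7* added to the sum, as did that of *FOSL1* with *JUND* left out. A pseudocount of 1 raised the share of *FOSB* to 0.91% and 0.96%. With 1 culture per height, neither the error of a ratio nor the depth behind it is known.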

Other observations

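Among the AP-1 relatives that did not exceed 1 FPKM in both cultures, *BATF3* had 0.739 FPKM in the 2-cm-high-medium culture against 1.15 FPKM at 50 cm, and *BATF*, a subunit known from lymphocytes, had 0.181 FPKM and was then listed at 0. *IVL*, which encodes the cornified envelope protein involucrin, had 0.788 and 1.16 FPKM, and *TGM1*, the transglutaminase that crosslinks that envelope, had 0.942 and 0.503 FPKM. Of the matrix metalloproteinase genes on the AP-1 target list, *MMP1* and *MMP10* were not found by symbol. The others were nearly silent, with *MMP3* and *MMP7* listed at 0 in both cultures, *MMP9* at 0.382 and 0.0381 FPKM and *MMP13* at 0.0348 and 0.232 FPKM. These genes were chosen after their values were seen, and the reads behind them are unknown.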
